A study of Mus musculus with 56 samples.

Results

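Cortical thymic epithelial cells (cTECs) were compared between the late phase of postpartum thymic regeneration, from day 16 to day 28 after parturition (D16, D20, D24 and D28), and the early phase, from the day of parturition to day 12 (D0 to D12). The late phase had 4 samples, 1 for each of its time points, and the early phase had 18, so the comparison used 22 of the 28 cTEC samples of a series of 56 samples. The samples were taken by their labelled time points, and the phases are those of the study, which set them by the cellularity of the thymus. In both phases the mice were B.6SJL-Ptprca Pep3b/BoyJ-CD45.1 (B6.SJL) females that had been mated with BALB/cJ males and that did not nurse their litters. No sample received a drug or carried an engineered allele, each came from 1 mouse, and the phase cannot be told apart from the time since parturition. Age-matched non-pregnant females (NPC) and females at day 18 of gestation (D-2) had 3 cTEC samples each and served as points of reference. cTECs were sorted as EpCAM+CD45-UEA1- cells after digestion with papain, collagenase IV and DNase, and their polyadenylated RNA was sequenced.

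cTECs form the scaffold of the thymic cortex, where they attract blood-borne progenitors, commit them to the T lineage through the Notch ligand *Dll4*, feed them with *Il7* and *Kitl*, and present the peptides on which thymocytes are positively selected. *Foxn1* is the transcription factor on which this programme rests, and *Psmb11*, *Prss16*, *Ccl25* and *Dll4* are among its known targets. The cortical thymoproteasome subunit *Psmb11*, the serine protease *Prss16* and cathepsin L (*Ctsl*) shape the peptides that cTECs display.

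Total expected counts were 6470058 to 44409019 in early samples and 8867222 to 40794211 in late samples. Of 10068 genes with a mean of at least 5 FPKM (fragments mapped to a gene, scaled by the length of its transcripts and by the library total), 1436 had a count of 0 in D3 replicate 2 and 417 in D20, against 32 to 135 in the other 20 samples. These libraries also had the lowest mean Spearman correlations with the other cTEC samples, 0.826 for D3 replicate 2 and 0.888 for D20, against 0.929 to 0.958. The value of 0.929 was that of D28, in which 51 of the genes had a count of 0. Mitochondrial genes held 1.1601% of counts in D28, against 1.1641% to 3.02% in early samples. The top 100 genes held 18.96% in D28 and 19.64% in D16, both below the early range of 20.27% to 22.72%. D20 and D24 lay within that range. *Psmb11*, *Prss16* and *Foxn1* were detected in all 22 samples. A list of 10 genes of the sort and of cTECs summed to 5033 to 15019 FPKM in early and 3953 to 8518 FPKM in late samples. It held *Epcam*, *Cdh1*, *Krt8*, *Krt18*, *Foxn1*, *Psmb11*, *Prss16*, *Ly75*, *Enpep* and *Ptprc*. *Ptprc* encodes CD45, which the sort excluded, and others of the list are compared between the phases below. The sum is therefore no check on the purity of the sort.

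Calls were made with limma-voom at a fold change of 2 or more and an adjusted p (Benjamini-Hochberg) up to 0.01. Of 15845 genes tested, 223 (1.41%) were called. Of these, 180 (1.14%) were higher and 43 (0.271%) lower in the late phase, and the median log2 fold change of all genes was -0.04. Over all genes tested, 47.4% had a log2 fold change above 0. The counts given below for lists and families stand against these shares. In 35 of the higher and 4 of the lower genes, the 4 late samples lay outside the range of the 18 early samples in FPKM, which was the case for 0.442% (above) and 0.126% (below) of all genes tested. The number of calls depended on D28. Without it 52 genes were called, 48 of them among the 223. The part of the low shares of the D28 library, given above, in this loss was not tested. Leaving out D24 gave 439 calls and leaving out D3 replicate 2 gave 350. Without both D3 replicate 2 and D20, 329 genes were called, 136 of which were among the 223. The late sample farthest from the early median was D20 for 88 of the 180 higher genes and D28 for 75. When D12 was counted as late, no gene was called by limma-voom and 2138 genes had an unadjusted p under 0.05. The edgeR quasi-likelihood test called 45 genes and shared 38 with limma-voom.

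**Figure D1:**
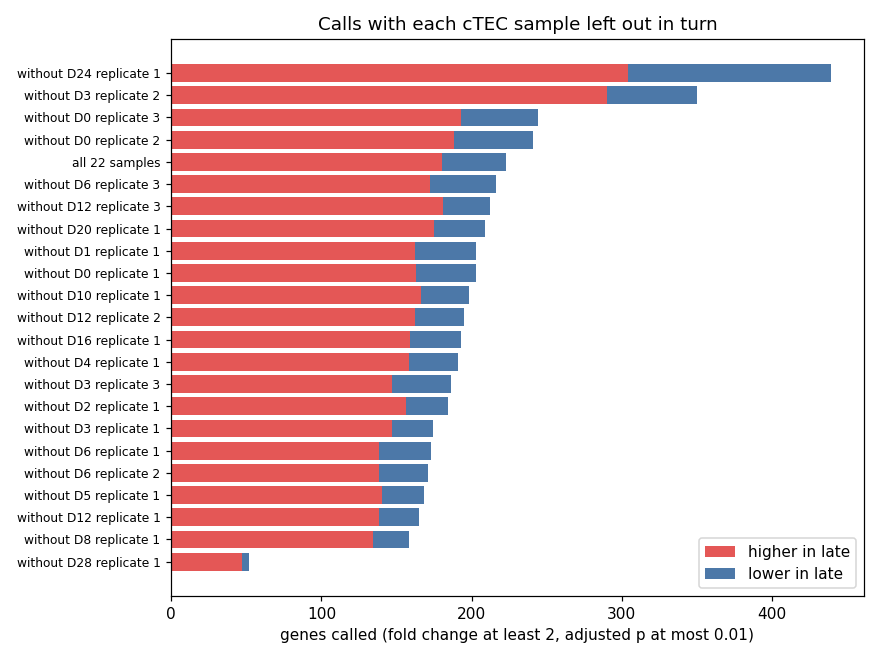
Number of genes called higher (red) or lower (blue) in late than in early cTECs with limma-voom, for all 22 samples and with each sample left out in turn. The bar for D28 is the shortest, with 52 genes, and the bar for D24 the longest, with 439.

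*Foxn1* (chr11:78357577-78386558, minus strand, GRCm38) fell in the late phase. Its late values were 79.9 FPKM (D16), 181 FPKM (D20), 108 FPKM (D24) and 41.8 FPKM (D28), against a lowest value of 135, a median of 208 and a highest of 344 FPKM over the early samples. The late samples of D16, D24 and D28 lay below every early sample, while D20 lay within the early range. The mean was 103 ± 59.0 FPKM (SD, n = 4) in late and 213 ± 57.1 FPKM (SD, n = 18) in early samples, with a log2 fold change of -1.28 ± 0.26 (SE, adjusted p = 0.00386 by limma-voom). An exact permutation test of log2(FPKM + 0.5), two-sided, gave an unadjusted p of 0.00109 for 4 against 18 samples. The *Foxn1* call did not hold without D28 (log2 fold change -0.88, adjusted p = 0.0398), without D16 (-1.22, adjusted p = 0.0121) or in edgeR (adjusted p = 0.0320). NPC mice had a mean of 158 ± 80.0 FPKM (SD, n = 3), between the means of the phases.

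*Psmb11* read 148, 130, 97.0 and 49.0 FPKM from D16 to D28, against 79.2, 270 and 446 FPKM as the lowest, median and highest early values. Its log2 fold change of -1.35 ± 0.40 missed the threshold (adjusted p = 0.0322 by limma-voom), with an unadjusted p of 0.00834 in the exact permutation test. *Prss16* read 3248, 1126, 877 and 954 FPKM against an early range of 390 to 3065 FPKM around a median of 2449, and its log2 fold change was -0.58 ± 0.46 (adjusted p = 0.438 by limma-voom). For *Prss16* the D16 sample stood above every early sample and the other late samples in the lower part of the early range. The early phase was itself not level for these genes. *Prss16* averaged 511 FPKM at D0 and 1830 FPKM at D3, and reached means of 2845 FPKM at D6 and 2735 FPKM at D12 (n = 3 each), and *Psmb11* averaged 81.8 FPKM at D0 and 314 at D12. Late values of *Psmb11* and of *Prss16* from D20 onwards lay nearer to those of D0 than to those of D12.

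Over the 19 tested genes of cTEC transcription and identity, *Foxn1* was the only call and the median log2 fold change was -0.30. Of the 19, 13 were below 0 and 6 above, where 47.4% of all genes tested were above 0. At an adjusted p of at most 0.05 with any fold change, 5 of the 19 genes were lower and 0 higher, where 4.74% of all genes tested were lower. The other 4 were *Psmb11*, the paired-box factor *Pax1* (-0.92, adjusted p = 0.00876 by limma-voom), and the simple-epithelium keratins *Krt8* (-0.82) and *Krt18* (-1.05). Without D28 none of the 19 genes was called.

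**Figure D2:**
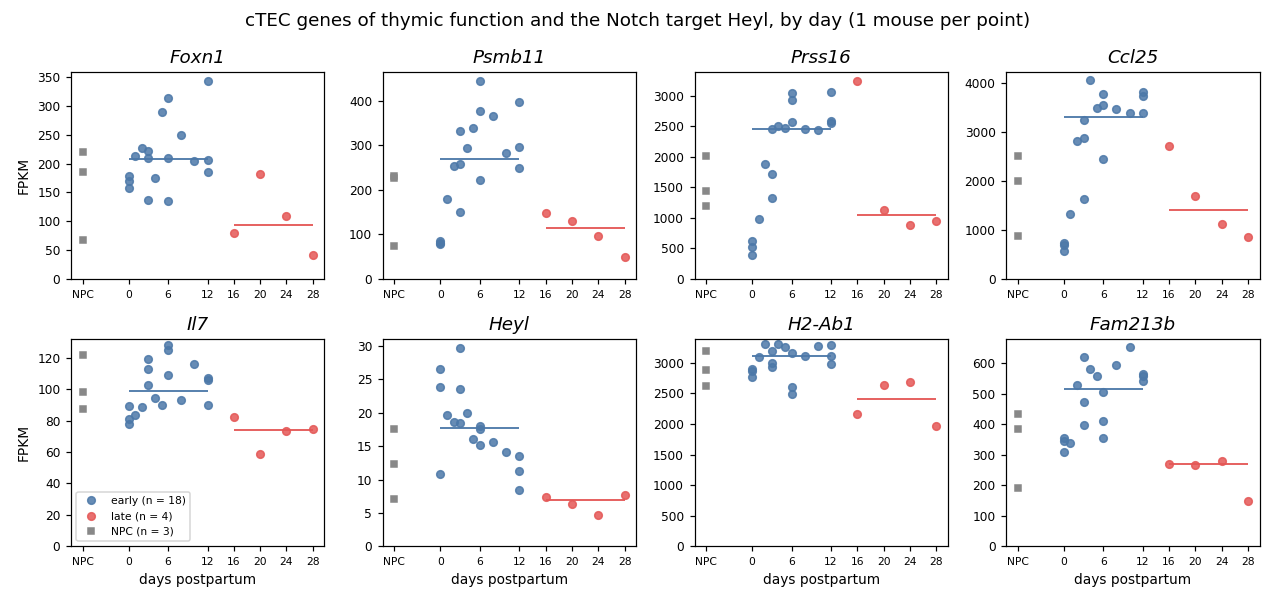
FPKM of 8 genes by day postpartum in early (blue, n = 18) and late (red, n = 4) cTECs, with NPC samples (grey, n = 3) at the left, 1 mouse per point and horizontal lines at the median of each phase. *Psmb11*, *Prss16* and *Ccl25* are low at D0, high from D6 to D12 and lower again by D20. *Heyl* already falls from D3 to D12 and lies below every early sample at all 4 late time points.

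None of 11 ligands and cytokines that act on thymocytes was called, and their median log2 fold change was -0.56. This median rested on D20, without which it was 0.15 and the WNT ligand *Wnt4* was called lower. *Il7*, the cytokine that sustains early thymocytes, read 82.0, 59.1, 73.1 and 74.9 FPKM in late samples against 77.9, 98.5 and 128 FPKM as the lowest, median and highest early values. All late values of *Il7* except that of D16 were below the early range. Its log2 fold change was -0.56 ± 0.12, which passed the adjusted p of limma-voom (0.00630) but not the fold change threshold, and its exact permutation p, unadjusted, was 0.000410. The chemokine *Cxcl12* read 867 FPKM at D16 and 323, 405 and 455 FPKM afterwards (early range 437 to 1111 FPKM), with a log2 fold change of -0.70 and an adjusted p of 0.0325 (limma-voom). *Ccl25*, which draws progenitors into the thymus, read 2709, 1699, 1118 and 843 FPKM within an early range of 564 to 4047 FPKM (log2 fold change -0.79, adjusted p = 0.267 by limma-voom). *Dll4* read 46.5, 15.3, 13.7 and 10.8 FPKM, within an early range of 8.19 to 69.9 FPKM (log2 fold change -0.84, adjusted p = 0.207 by limma-voom). The stem cell factor *Kitl* had a log2 fold change of 0.25 (adjusted p = 0.461), the protease *Ctsl* of -0.17 (adjusted p = 0.747) and the surface protein *Cd83* of -0.43 (adjusted p = 0.639), all by limma-voom. Each of these single genes was given an unadjusted exact permutation test as well, and 13 genes were tested in this way. The p of this test was 0.0105 for *Cxcl12*, 0.199 for *Ccl25*, 0.253 for *Dll4* and 0.361 for *Kitl*. It was 0.807 for *Ctsl*, 0.688 for *Cd83* and 0.451 for *Prss16*.

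The RNA of class II genes differed by less than the fold change threshold. *H2-Ab1* read 2168, 2639, 2694 and 1971 FPKM in late samples against 2492 to 3316 FPKM (median 3105) in early samples, a log2 fold change of -0.49 ± 0.11 (adjusted p = 0.00697 by limma-voom). D16 and D28 lay below the early range for *H2-Ab1*, and D20 and D24 within it. *H2-Aa* had a log2 fold change of -0.43 and *H2-Eb1* of -0.24, and the adjusted p of limma-voom was 0.0139 and 0.0898. In the exact permutation test, *H2-Ab1* had an unadjusted p of 0.000957, *H2-Aa* of 0.00260 and *H2-Eb1* of 0.0282. Of 10 class II genes, 8 were below 0 and 0 were called (median log2 fold change -0.28). At an adjusted p of at most 0.05 by limma-voom with any fold change, 5 of the 10 were lower and 0 higher, where 4.74% of all genes tested were lower.

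The fall of *Heyl* (chr4:123233556-123249875, plus strand), a transcriptional repressor induced by Notch signalling, was the largest of the 4 falls without overlap. It read 7.43, 6.34, 4.71 and 7.70 FPKM in late samples, all below the lowest early value of 8.50 FPKM (median 17.8, highest 29.7). The log2 fold change was -1.67 ± 0.24 (adjusted p = 0.000215 by limma-voom and 0.00149 by edgeR), and *Heyl* was the 1 lower gene that stayed called in all 22 fits that each left out 1 sample. Its related factor *Hey1* had a log2 fold change of -0.91 (adjusted p = 0.000370 by limma-voom), below the fold change threshold. Over 11 Notch receptors and targets *Heyl* was the only call and the median was -0.91, but the median without D20 was -0.24.

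The other lower genes whose late samples all lay below the early range were *Tst*, *Fam213b* and *Parvb*. *Tst*, a mitochondrial sulfurtransferase, read 107, 121, 126 and 55.3 FPKM against an early range of 132 to 258 FPKM (log2 fold change -1.11, adjusted p = 0.00263 by limma-voom). *Fam213b*, which encodes a prostamide synthase, read 269, 268, 278 and 148 FPKM against 310 to 652 FPKM (-1.10, adjusted p = 0.00198 by limma-voom). *Parvb*, a protein of integrin adhesions, read 10.5, 8.48, 12.8 and 15.4 FPKM against 17.6 to 39.2 FPKM (-1.10, adjusted p = 0.000269 by limma-voom), and without D20 its log2 fold change was -0.98. *Tst* (-0.79, adjusted p = 0.0316 by limma-voom) and *Fam213b* (-0.87, adjusted p = 0.0250 by limma-voom) were not called without D28. *Zfpl1*, a Golgi protein, had a log2 fold change of -2.20 that rested on D20, which read 1.26 FPKM where the other late samples read 17.6 to 28.1 FPKM. Without D20 the log2 fold change of *Zfpl1* was -0.88. *Gcat*, a mitochondrial enzyme of threonine breakdown, had a log2 fold change of -1.59 and was called in 8 of the 22 fits with 1 sample left out.

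Of 36 tested genes of the Nduf family, which encode subunits of respiratory complex I, 3 were called lower (*Ndufa11*, *Ndufa5* and *Ndufb6*), 0 higher, and 1 had a log2 fold change above 0 (median -0.53). This family was chosen after its values had been seen. *Ndufa5* read 141, 62.0, 138 and 97.3 FPKM against an early range of 107 to 454 FPKM (log2 fold change -1.06, adjusted p = 0.00622 by limma-voom). Without D28 none of the family was called, and without D3 replicate 2 and D20 *Ndufa2* was the only call. Over a list of 19 genes of the respiratory chain, 0 were called and 2 were above 0, with a median of -0.29. The genes of this list with the smallest p were *Uqcrfs1* (-0.63, adjusted p = 0.0271) and *Sdha* (-0.39, adjusted p = 0.0286 by limma-voom).

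The higher genes included genes of the extracellular matrix. Of 33 tested collagen genes, 9 were called higher and 0 lower, 29 were above 0 and their median log2 fold change was 1.14. Over all genes tested, 1.14% were called higher and 47.4% were above 0. This family too was chosen after its values had been seen. *Col14a1* (chr15:55307750-55520803, plus strand), a collagen associated with fibrils, read 14.6, 20.3, 13.4 and 27.9 FPKM in late samples, all above the highest early value of 12.7 FPKM (lowest 1.75, median 4.71). The log2 fold change of *Col14a1* was 2.18 ± 0.25 (adjusted p = 2.28e-05 by limma-voom, 0.00314 by edgeR). *Col17a1*, the hemidesmosome collagen of basal epithelial cells, read 13.0, 21.02, 14.2 and 32.1 FPKM against 1.90 to 13.2 FPKM (1.96 ± 0.23, adjusted p = 2.99e-05 by limma-voom). *Col7a1*, the collagen of anchoring fibrils, read 9.90, 26.3, 6.70 and 27.1 FPKM against 0 to 10.6 FPKM (2.98 ± 0.42, adjusted p = 0.000153 by limma-voom). Without D28, 4 collagen genes were called (*Col14a1*, *Col17a1*, *Col7a1* and *Col8a1*). Without D3 replicate 2 and D20, 10 were called.

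Over the list of 25 extracellular matrix genes, 3 were called higher, 23 were above 0 and the median was 0.66. With any fold change at an adjusted p of at most 0.05 by limma-voom, 12 were higher and 0 lower, where 6.00% of all genes tested were higher. The proteoglycan *Bgn* read 24.1, 93.5, 37.2 and 50.1 FPKM against an early range of 5.36 to 44.9 FPKM (log2 fold change 1.73 ± 0.24, adjusted p = 0.000153 by limma-voom), and it was called in all 22 fits with 1 sample left out. The proteoglycan *Dcn* (decorin) read 253, 484, 492 and 621 FPKM, with D20 to D28 above the early range of 61.9 to 316 FPKM and D16 within it (1.27 ± 0.28, adjusted p = 0.00597 by limma-voom). The fibrillar collagen *Col5a2* had a log2 fold change of 1.31 (adjusted p = 0.00160 by limma-voom). *Bgn* was the only called gene of the list without D28.

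The 12 markers of fibroblasts and mural cells summed to 478, 805, 715 and 886 FPKM in late samples against 183 to 550 FPKM (median 284) in early samples, and 492 to 608 FPKM in NPC samples. The sums of D20, D24 and D28 lay above the early range and that of D16 within it. *Dcn* belongs to this list and to that of the extracellular matrix, and it made up 462 of a mean sum of 721 FPKM in late and 186 of 313 FPKM in early samples. None of the 12 markers was at 0 in every late sample. Of the 10 markers tested, 2 were called higher, *Dcn* and the pericyte gene *Rgs5* (19.5, 22.4, 16.3 and 22.9 FPKM against 3.18 to 14.9 FPKM, log2 fold change 1.497, adjusted p = 0.00158 by limma-voom), and the median was 1.30. Without D28 neither was called, and edgeR called no marker of the list (adjusted p = 0.0112 for *Dcn* and 0.0199 for *Rgs5*). With any fold change at an adjusted p of at most 0.05 by limma-voom, 7 of the 10 were higher and 0 lower, where 6.00% of all genes tested were higher. Of the 10, 8 were above 0 and 2 below. *Pdgfra* and *Pdgfrb* did not reach the limit of 0.5 FPKM and were not tested. *Rgs5* averaged 131 FPKM in late and 77.1 FPKM in early sorted medullary thymic epithelial cells (mTECs). In late and early cTECs *Rgs5* averaged 20.2 and 6.91 FPKM. *Dcn* averaged 103 and 98.6 FPKM in late and early mTECs. The part of fibroblasts and mural cells in the matrix result, and of mTECs in the *Rgs5* values, was not tested. In bulk samples, more cells of a type and more RNA per cell cannot be told apart.

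**Figure D3:**
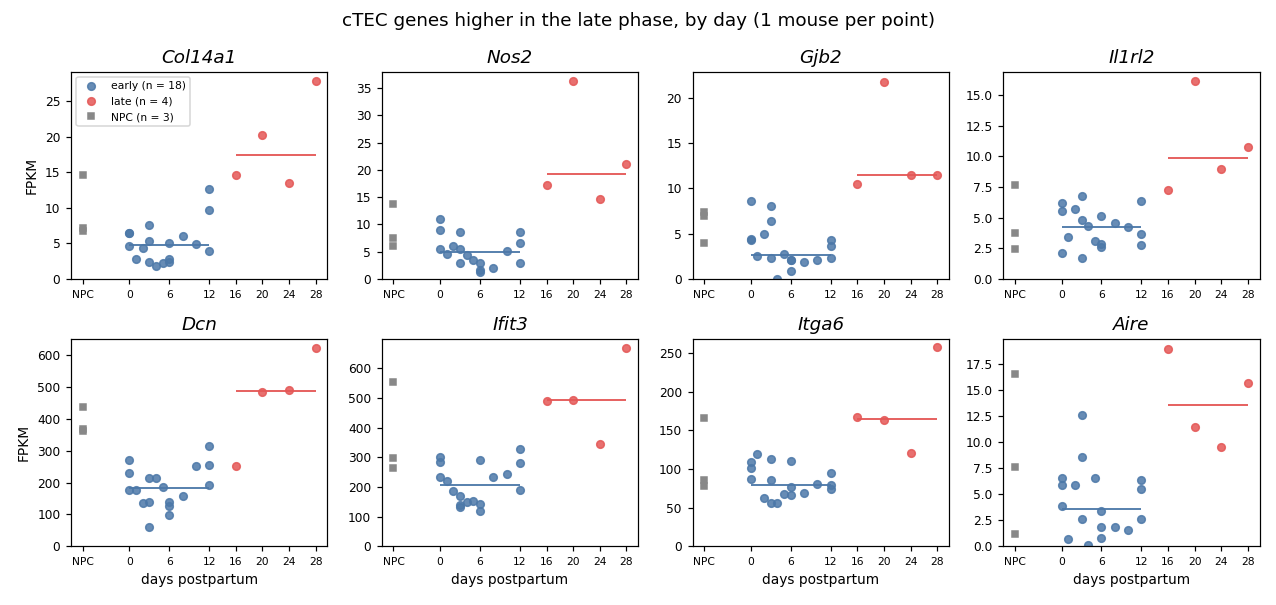
FPKM of 8 genes by day postpartum in early (blue, n = 18) and late (red, n = 4) cTECs, with NPC samples (grey, n = 3) at the left, 1 mouse per point and horizontal lines at the median of each phase. *Col14a1*, *Nos2*, *Gjb2*, *Il1rl2*, *Ifit3* and *Itga6* lie above every early sample at all 4 late time points, and D16 of *Dcn* and 2 late samples of *Aire* overlap the early range.

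The largest rises among genes without overlap included genes of epithelial contact and signalling. *Anxa10*, a calcium-dependent lipid-binding protein, read 6.92, 11.9, 6.47 and 8.68 FPKM against an early median of 2.12 and a highest early value of 5.69 FPKM. It was at 0 in 5 early samples. The fitted log2 fold change was 3.73 ± 0.82, and the log2 ratio of mean FPKM, each with 0.5 added, was 1.86. *Sned1*, a secreted matrix protein, read 6.30, 11.04, 7.14 and 6.63 FPKM against a highest early value of 6.01 FPKM (fitted 3.52, ratio of means 1.66, adjusted p = 0.00102 by limma-voom). *Gjb2*, the gap junction protein connexin 26, read 10.5, 21.8, 11.5 and 11.5 FPKM against 0 to 8.59 FPKM (2.59 ± 0.48, adjusted p = 0.00196 by limma-voom). The fitted fold change exceeded the ratio of means for all 12 of these genes.

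*Nos2* (chr11:78920787-78960254, plus strand), the inducible nitric oxide synthase, read 17.3, 36.2, 14.6 and 21.1 FPKM, all above the highest early value of 10.98 FPKM (median 4.88). For *Nos2* the log2 fold change was 2.17 ± 0.29 (adjusted p = 0.000113 by limma-voom, 0.00962 by edgeR). *Il1rl2*, the receptor of the IL-36 cytokines, read 7.24, 16.2, 8.97 and 10.8 FPKM against 1.71 to 6.78 FPKM (1.64 ± 0.27, adjusted p = 0.000740 by limma-voom). *Nrp2*, a receptor of semaphorins and vascular growth factors, read 3.50, 5.83, 6.47 and 7.47 FPKM against 0.05 to 2.96 FPKM (2.12 ± 0.29, adjusted p = 0.000117 by limma-voom). *Nos2*, *Il1rl2*, *Nrp2*, *Gjb2*, *Sned1* and *Col14a1* were called in all 22 fits with 1 sample left out. edgeR called only *Nos2* and *Col14a1* of the 12 genes, with an adjusted p of 0.0160 for *Il1rl2*, 0.0200 for *Nrp2*, 0.0602 for *Gjb2* and 0.0123 for *Sned1*. The receptor *Epha3* (2.06), the chloride channel accessory gene *Clca3a1* (2.43) and the phosphatase *Dusp4* (1.87) were also among the 12. The complement component *C2* (1.59) and the membrane protein *Gpm6b* (1.54) completed them. Each of these genes, like *Anxa10*, lost its call without D28. All of the 12 but *Sned1*, *Epha3* and *Gpm6b* had a higher mean in late mTECs than in late cTECs. *Nos2* averaged 44.6 FPKM in late mTECs and 22.3 in late cTECs, *Gjb2* 36.8 and 13.8, and *Gpm6b* 1.2 and 14.6. The part of mTECs or of their RNA in these rises was not tested.

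A growth factor and its receptor were both higher, and they are named here after their values had been seen. *Hgf* read 9.88, 10.5, 15.7 and 20.5 FPKM, all above the highest early value of 9.01 FPKM (median 5.44), with a log2 fold change of 1.44 ± 0.20 (adjusted p = 0.000126 by limma-voom, 0.0104 by edgeR). *Met*, the receptor of the factor that *Hgf* encodes, read 5.62, 13.9, 8.07 and 13.2 FPKM against 1.31 to 9.18 FPKM, so that D16 and D24 overlapped the early samples (1.49 ± 0.22, adjusted p = 0.000281 by limma-voom). Both were called in all 22 fits with 1 sample left out.

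**Figure D4:**
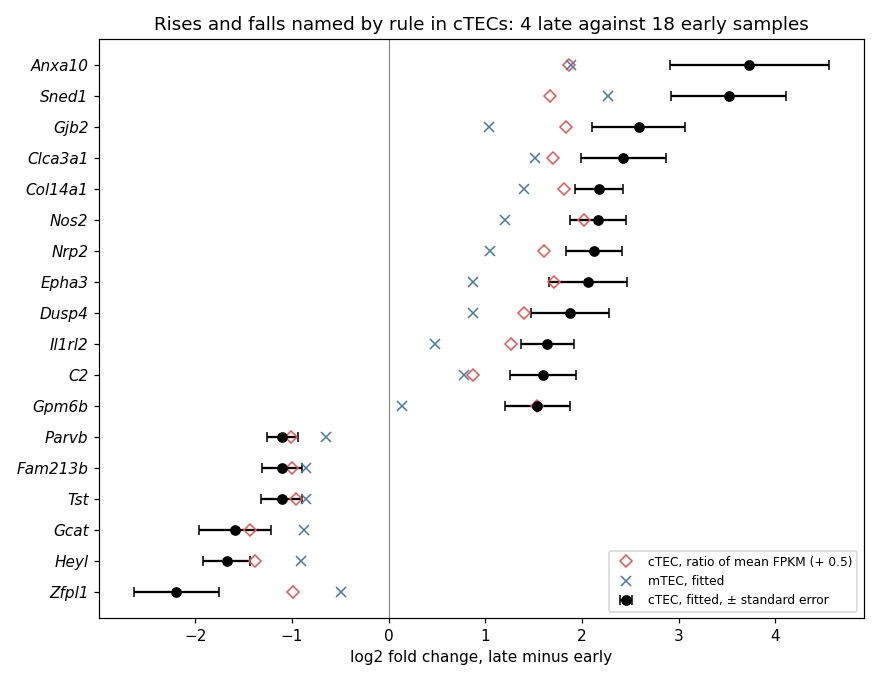
Fitted log2 fold change, late minus early, with its standard error (black) for 12 rises and 6 falls in cTECs (the largest among called genes with at least 5 FPKM in the higher phase and no overlap between phases, with *Zfpl1* and *Gcat* added among the falls), the log2 ratio of mean FPKM with 0.5 added (open red) and the fitted value of the same gene in mTECs (blue crosses). The mTEC values have the same sign as the cTEC values for all 18 genes, and *Zfpl1*, *Anxa10* and *Sned1* have the largest gaps between the fitted value and the ratio of means.

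Genes of the response to interferon included 2 that were called higher, of 25 tested, with 23 above 0 and a median log2 fold change of 0.24. Over all genes tested, 1.14% were called higher and 47.4% were above 0. *Ifit3* (chr19:34583531-34588731, plus strand), which encodes an antiviral protein, read 489, 495, 344 and 670 FPKM, all above the highest early value of 330 FPKM (lowest 119, median 205). Its log2 fold change was 1.19 ± 0.22 (adjusted p = 0.00186 by limma-voom, 0.00382 by edgeR). The antiviral GTPase *Mx1* read 17.8, 7.33, 11.2 and 26.9 FPKM against 0 to 13.3 FPKM, with D20 and D24 inside the early range (2.23 ± 0.48, adjusted p = 0.00547 by limma-voom). *Stat2*, which carries the interferon signal to the nucleus, had a log2 fold change of 1.00 (adjusted p = 0.0101 by limma-voom), just short of a call. Without D28 none of the 25 genes was called. NPC samples had 371 ± 158 FPKM of *Ifit3* (SD, n = 3).

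Most of 11 listed lysosomal genes encode proteases, though *Cst3*, *Lamp1* and *Lamp2* do not, and 1 of the 11 was called. *Ctss* (chr3:95526786-95556403, plus strand), which encodes cathepsin S, a protease that trims the invariant chain of class II molecules, read 22, 16.9, 16.0 and 16.4 FPKM, all above the highest early value of 15.4 FPKM (median 7.71). This was a log2 fold change of 1.27 ± 0.28 (adjusted p = 0.00592 by limma-voom, 0.143 by edgeR). *Ctss* was called in 16 of the 22 fits with 1 sample left out, and not without D20 (adjusted p = 0.0166 by limma-voom) or D28 (0.0240). The 16 markers of macrophages and dendritic cells, which also express *Ctss*, summed to 52.5, 10.6, 42.3 and 60.0 FPKM in late samples against 4.48 to 40.3 FPKM in early samples, so that all late sums but that of D20 were above the early range. *Ctss* averaged 82.3 FPKM in late and 50.2 FPKM in early mTECs, against 17.8 and 7.93 FPKM in late and early cTECs. The part of macrophages, dendritic cells or mTECs in the *Ctss* result was not tested.

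The promoters of *Ifit3* and *Ctss* are shown because both genes were called and hold 2 copies of GAAA with any 2 bases between them, the core of the element by which interferon-induced factors bind. Each sequence runs 5′ to 3′ along the gene's strand (RefSeq, GRCm38.p6), from 250 bases before to 50 bases after the start, with the matches on either strand in capitals. The *Ifit3* promoter lies at chr19:34583279-34583578 and the *Ctss* promoter at chr3:95526536-95526835, both on the plus strand.
Ifit3: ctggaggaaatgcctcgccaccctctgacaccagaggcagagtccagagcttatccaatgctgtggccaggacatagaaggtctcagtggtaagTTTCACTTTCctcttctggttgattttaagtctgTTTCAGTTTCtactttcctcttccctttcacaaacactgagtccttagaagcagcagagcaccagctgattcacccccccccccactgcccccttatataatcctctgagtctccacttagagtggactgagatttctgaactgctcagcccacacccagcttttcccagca
Ctss: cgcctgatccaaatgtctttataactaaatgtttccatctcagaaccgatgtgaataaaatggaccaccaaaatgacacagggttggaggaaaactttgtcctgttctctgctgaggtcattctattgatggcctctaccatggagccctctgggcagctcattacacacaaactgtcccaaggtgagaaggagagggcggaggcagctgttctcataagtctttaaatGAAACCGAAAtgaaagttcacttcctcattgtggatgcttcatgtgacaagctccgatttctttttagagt
Of 32851 promoters of the same length, 3.44% held such a pair, as did those of 13 of the 20 genes of the interferon list that the table holds. *Ifit3* had 2 matches, both on the opposite strand, and *Ctss* had 1. These matches are descriptions of the letters and not measured sites.

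Signals of the stroma were mixed. Among 16 readouts of BMP and TGF-beta, 2 were higher, the matricellular gene *Ccn2* (14.8, 13.2, 5.10 and 21.2 FPKM against an early median of 3.11, log2 fold change 2.01, adjusted p = 0.00533 by limma-voom) and the activin antagonist *Fst* (26.6, 62.4, 48.5 and 38.2 FPKM against 6.65 to 30.6 FPKM, 1.26, adjusted p = 0.00585 by limma-voom). The homeobox gene *Msx1* was lower (6.34, 3.35, 13.4 and 6.22 FPKM against 6.08 to 16.5 FPKM, -1.24, adjusted p = 0.00639 by limma-voom). None of these 3 was called without D20 or without D28. Among 9 readouts of WNT, the secreted protein *Dkk3* was the only call (1.28, adjusted p = 0.00262 by limma-voom, 0.173 by edgeR), and it was lost without D20 (adjusted p = 0.0151 by limma-voom) or D28 (0.0272).

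No gene of the list of basal and progenitor epithelium was called, of 18 tested, and the median log2 fold change was 0.52, or 0.28 without D20. The integrin subunit *Itga6*, which anchors basal cells, read 168, 163, 121 and 258 FPKM, all above the highest early value of 119 FPKM (lowest 56.1, median 79.8). Its log2 fold change of 0.99 ± 0.16 fell just below the threshold at an adjusted p of 0.000625 (limma-voom), and 9 of the 22 fits with 1 sample left out called it, that without D20 among them. *Ly6a* read 651, 825, 859 and 1049 FPKM against 157 to 886 FPKM (0.95, adjusted p = 0.0307 by limma-voom).

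Of 14 markers of mTECs, 3 were called higher in the late cTECs and the median log2 fold change was 0.62. With any fold change at an adjusted p of at most 0.05 by limma-voom, 7 were higher and 0 lower, where 6.00% of all genes tested were higher. *Aire*, which drives the expression of tissue antigens in the medulla, read 18.9, 11.4, 9.55 and 15.7 FPKM against 0.09 to 12.6 FPKM (2.07 ± 0.44, adjusted p = 0.00468 by limma-voom). *Ly6d* read 76.5, 130, 110 and 69.7 FPKM against 15.3 to 76.0 FPKM (1.35, adjusted p = 0.00181 by limma-voom). The costimulatory gene *Cd80* read 6.07, 10.1, 6.15 and 6.05 FPKM against 0 to 8.52 FPKM (fitted 3.08, adjusted p = 0.00865 by limma-voom, 0.294 by edgeR). *Ccl21a*, the chemokine with most of the signal of this list, had a log2 fold change of 0.01. The markers other than *Ccl21a* summed to 562 to 1101 FPKM in late and 295 to 792 FPKM in early cTECs, against 1484 to 2558 FPKM in the sorted early mTECs. None of these markers was at 0 in every sample of a phase. Without D3 replicate 2 and D20, *Aire* was the only call of this list, and without D28 it was *Ly6d*. The part of mTECs or of their RNA in these values was not tested.

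Of the markers of other cells that the sort could hold, none was called by limma-voom on all 22 samples. Without D20 the macrophage lysozyme *Lyz2* was called higher, and it read 29.3, 4.72, 18.7 and 37.4 FPKM in late samples against 0 to 16.4 FPKM in early samples. The 20 thymocyte markers summed to 36.4 to 474 FPKM in early and 80.2 to 283 FPKM in late samples and the 8 of B cells to 7.35 to 42.1 and 9.64 to 34.5 FPKM. The 10 endothelial markers summed to at most 10.02 FPKM and the 7 erythroid markers to at most 7.74 FPKM.

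**Figure D5:**
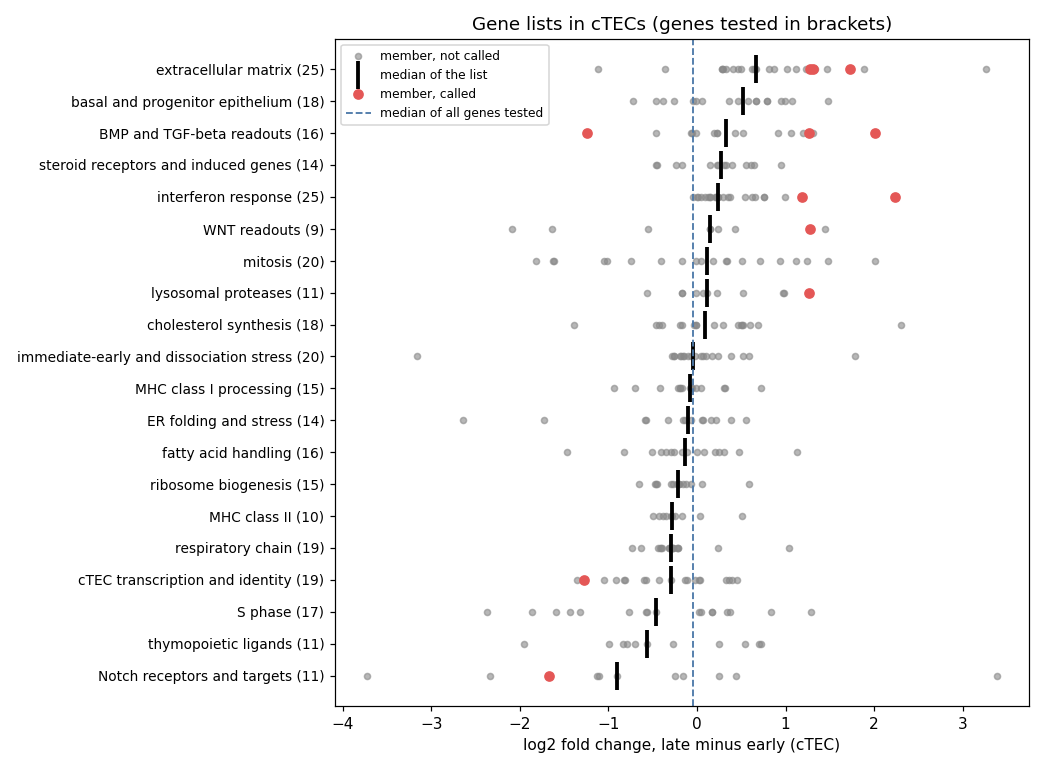
Fitted log2 fold change, late minus early, of every tested member (points) of 20 gene lists in cTECs, ordered by the median of the list (black bar), with called members in red and the median of all genes tested (-0.04) as a dashed line. Extracellular matrix has the highest median (0.66) and Notch receptors and targets the lowest (-0.91, or -0.24 without D20).

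Growth and metabolism gave no calls by limma-voom on all 22 samples. The list of 17 S phase genes had a median log2 fold change of -0.47, that of 20 mitosis genes 0.12, that of 15 genes of ribosome biogenesis -0.21, that of 18 genes of cholesterol synthesis 0.09 and that of 16 genes of fatty acid handling -0.14. Without D20 the S phase median was -0.045 and the mitosis median 0.70, with 17 of the 20 mitosis genes above 0 in place of 11. Without D28 the median was 0.23 for cholesterol synthesis and -0.047 for fatty acid handling. The genes with the smallest p in these lists were *Mcm5* (-0.56, adjusted p = 0.0313), *Ccna2* (2.00, adjusted p = 0.0955), *Bop1* (-0.66, adjusted p = 0.0151), *Stard4* (2.30, adjusted p = 0.0938) and *Hadha* (-0.50, adjusted p = 0.0101), all by limma-voom. For *Mcm7*, the next S phase gene by p (-0.77, adjusted p = 0.0434 by limma-voom), the ratio of mean FPKM had the opposite sign (0.13). The lists of class I processing (-0.08), folding in the endoplasmic reticulum (-0.10), immediate-early genes (-0.04) and steroid-induced genes (0.27) had no call either. Without D20 their medians were -0.16, 0.074, 0.31 and 0.43, and the class I regulator *Nlrc5* was called higher. Without D28 they were -0.020, -0.073, -0.27 and 0.16.

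mTECs were sequenced at the same time points, with 4 late and 18 early samples of their own. Of the 180 genes higher in late cTECs, 165 had a positive late minus early log2 fold change in mTECs, where 49.6% of all genes did, and of the 43 lower genes, 39 had a negative one. The median of the higher genes was 1.66 in cTECs and 0.74 in mTECs, and that of the lower genes was -1.16 in cTECs and -0.49 in mTECs. The difference between the cell types was tested as an interaction over 18394 genes, and 1 (0.00544%) passed the thresholds. That gene was *Vsir* (chr10:60346851-60372684, plus strand), which encodes the immune checkpoint protein VISTA.

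*Vsir* had 36.7, 67.3, 48.4 and 61.2 CPM (counts scaled to the library total) in late cTECs, against 11.8 to 36.9 (median 21.02) in early cTECs, so that all late samples but that of D16 lay above the early range. Its log2 fold change was 1.30 ± 0.16 in cTECs and -0.01 in mTECs, a difference of 1.32 ± 0.22 (adjusted p = 0.00331 by limma-voom). On the FPKM scale, which divides by the length of the transcripts that RSEM assigned, late cTECs read 11.1, 14.1, 16.2 and 16.1 against an early range of 2.47 to 26.6, and the log2 ratio of means was 0.49. edgeR found no difference between the cell types past the thresholds, with 814 genes at an unadjusted p under 0.05. For *Foxn1* the difference was -0.43 (adjusted p = 0.745) and for *Heyl* -0.77 (adjusted p = 0.511), both by limma-voom.

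For the called genes, the means of the reference groups were set beside those of the phases. The NPC mean lay between the early and late means for 156 of the 180 higher and 36 of the 43 lower genes, and it was closer to the late mean, on the scale of log2(FPKM + 0.5), for 61 and 10 of them. The D-2 mean lay between the phases for 131 of the higher and 31 of the lower genes. These are positions of means over 3 samples and were not tested. The called genes were picked for a gap between the phases, which by itself makes room for another mean within it. No share over all genes tested was computed, so the counts do not show that NPC or D-2 mice were intermediate.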

How the data were processed

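RNA-seq of sorted mouse cTECs and mTECs was read from the gene tables of 56 samples. According to the submitters' processing notes and the study's methods, reads were trimmed with Trimmomatic 0.35, aligned to GRCm38 with STAR 2.5.1b and quantified with RSEM 1.2.28. The authors deposited, per gene, the expected count (estimated, not normalised), TPM and FPKM, both scaled by gene length and library total. The annotation release is not given in the sources used here. GENCODE M21 named 50376 of 50600 genes.

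Expected counts were rounded to whole numbers, scaled with TMM and tested with limma-voom (R 4.3.3, limma 3.58.1, edgeR 4.0.16) on the 22 cTEC samples of both phases, over genes whose FPKM averaged 0.5 or more in all 28 cTEC samples. The cell type by phase interaction used 44 samples. p-values were adjusted by Benjamini-Hochberg. Levels are FPKM, with a pseudocount of 0.5 on the log2 scale. Fold changes of genes at 0 in a library depend on the offset of the method.

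Named genes were the 12 largest rises and falls among called genes with at least 5 FPKM in the higher phase and no overlap (6 falls, since 4 had none), 13 genes that the study follows, and per list the called members or the 2 with the smallest p. The members and lists were chosen with earlier results of these data known. Alternatives were edgeR, DESeq2 1.42.0, limma-trend, sample quality weights, other scalings, filters, thresholds and phase limits, 1 value per time point, and leaving out each sample. The replicate number was added as a factor in the cTEC test, and time point with title number as a block in the test between cell types. The 2 libraries with most genes at 0 were left out together after the data had been seen. The test was tried on simulated data. Since each late time point had 1 mouse, p-values treat the 4 late mice as replicates of a phase. NumPy 2.4.6, pandas 2.3.3 and SciPy 1.17.1 were used in Python 3.11.15.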

Additional observations from a re-analysis of the deposited data

Results flagged for a closer look

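In 9 of 78 named genes, 1 of the 4 late cTEC samples stood apart from the other late samples. The gap to the nearest of the others, divided by the range of the 4 on the log2(FPKM + 0.5) scale, passed Dixon's 95% critical value, which chance alone passes in about 1 in 20 such groups. D20 was the sample in 6 of the 9. It was highest for *Gjb2* (ratio 0.874) and *Cd80* (0.969), and lowest for *Zfpl1* (0.837), *Mcm7* (0.846), *Hadha* (0.964) and *Sdha* (0.909). D28 was lowest for *Fam213b* (0.938), D16 was highest for *Ctss* (0.833), and D24 was highest for *Hbb-bs* (1), which was listed at 0 FPKM in the other late samples.

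For *Vsir* the late minus early log2 fold change differed between the cell types, by 1.32 in cTECs minus mTECs (adjusted p = 0.00331 by limma-voom). Without the D20 or the D28 cTEC sample, or without the D16 mTEC sample, no gene passed this test.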

How the results depend on the processing

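The number of called genes, 223 in the test as reported, was 45 with edgeR, 94 with DESeq2, 1 with limma-trend at either pseudocount (2676 and 2447 genes at an unadjusted p under 0.05), 1045 with sample quality weights, 646 at an adjusted p of at most 0.05, 437 with no fold change threshold, 133 with D12 left out and 0 with D12 counted as late. With 1 sample left out it was 52 to 439. The higher share of calls was 80.7% as reported and 63.4% with quality weights, 65.5% with an early phase from D3 and 69.2% without D24. It was 61.3% with no fold change threshold, 90.6% with no TMM scaling and 90.4% without D28. At an adjusted p of at most 0.05 by limma-voom with any fold change, 951 genes were higher and 751 lower, so the share depended on the fold change threshold. The median of all genes moved from -0.04 to 0.10 under limma-trend and to 0.14 without D20. The difference between cell types gave 1 gene as reported, 0 with edgeR, 0 with D12 counted as late, 2 at an adjusted p of at most 0.05, and 0 to 2 with 1 of the 8 late samples left out (early samples were not left out of this test).

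Whether cTEC and mTEC samples with the same number in their titles came from the same mouse was not settled. The check used D0, D3, D6 and D12 alone and no late sample, and the main test of the difference between cell types took samples as independent. Deviations of cTEC and mTEC samples with the same number correlated at -0.11 to 0.12 (11 pairs), and those with other numbers at -0.19 to 0.18 (25 pairs). With samples of the same time point and number as a block (estimated correlation 0.108), 2 genes passed for the difference between cell types. In a separate fit of the cTECs, the replicate number was added as a factor, and every late sample carried the same number. That fit does not bear on pairing, and it called 309 genes, 187 of them among the 223.

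Named genes gave 3098 fold changes under alternatives, of which 2760 kept their call or lack of it, 280 lost it, 38 gained it and 20 changed sign. With D12 counted as late the fold changes of *Prss16* (0.10), *Ctsl* (0.095), *Cd83* (0.21) and *Hbb-bs* (0.88) changed sign, as did the exact test differences of *Ccl25* (0.0078), *Prss16* (0.18), *Ctsl* (0.13) and *Cd83* (0.30). *Mcm7* changed sign under limma-trend (0.17 at both pseudocounts). Quality weights changed *Ctsl* (0.37), *Cd83* (0.14) and *Egr2* (0.54). *Cd79b* was -0.039 with the replicate number as a factor. Without D3 replicate 2 and D20, *Ctsl* was 0.011 and *Egr2* 0.26. With 1 sample left out, the fold changes ran from -0.49 to 0.019 for *Ctsl* (positive without D24), from -0.54 to 2.32 for *Cd79b* (negative without D16, D1, D24, D28, D3 replicate 2 or D6 replicate 2) and from -4.78 to 0.27 for *Egr2* (positive without D20). The exact test differences ran from -0.42 to 0.13 for *Ctsl* (positive without D20 or D24) and from -0.72 to 0.041 for *Cd83* (positive without D24 or D28). The cause was not tested for any of these.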

Other observations

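Mucins, the glycoproteins of wet epithelial surfaces, were a family that no list held. Of 9 tested Muc genes, 3 were called higher in late cTECs (*Muc4*, *Muc13* and *Muc16*), 0 lower, all 9 were above 0 and the median log2 fold change was 1.59, or 3.15 with 8 of 9 above 0 without D20. The family was chosen after its values had been seen. *Muc4* read 4.41, 2.09, 4.84 and 5.45 FPKM in late samples against an early median of 0.58 and an early range of 0 to 8.37 FPKM. *Muc16* read 15.4 FPKM at D20 and 1.07 to 1.51 FPKM in the other late samples. *Muc4* was the only call without D20, none was called without D28, and edgeR called none of them.

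Of 82 tested cytosolic ribosomal protein genes, 4 had a log2 fold change above 0, the median was -0.36 and *Rpl10a* was the only call (-1.02, adjusted p = 0.00832 by limma-voom), made in 6 of the 22 fits with 1 sample left out. This family too was chosen after its values had been seen. *Rpl10a* read 132, 309, 392 and 166 FPKM in late samples against 212 to 833 FPKM in early samples.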
